A study of Mus musculus with 6 samples.

Results

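Integrin and laminin genes were followed in mouse mammary tumour cells given an excess of the microRNA miR-16. The members are all non-control probes of the arrays whose gene name began with Itga or Itgb, or with Lama, Lamb or Lamc followed by a digit. The rule found 91 of 41174 probes, printed on 109 of 43379 spots. These probes carry 44 of the 28786 gene names (or transcript IDs, where a probe had no gene name) on the array, of which 37 are subunit genes (26 integrin subunits and 11 laminin chains, 80 probes). The other 7 names, on 11 probes, share only the prefix: Itgb1bp1, Itgb1bp2, Itgb1bp3, Itgb3bp and Itgbl1 are binding partners or relatives of beta chains, and Itgb4bp is the old name of Eif6, a ribosome biogenesis factor, under which 1 probe remained. Itgad, an alpha chain of leukocytes, was not analysed here.

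Integrins are receptors of 1 alpha and 1 beta chain that tie the cytoskeleton to the matrix outside the cell or to ligands on other cells. Laminins are cross-shaped trimers of an alpha, a beta and a gamma chain that build the basement membrane under epithelia and around muscle, fat and vessels. In the mammary gland, epithelial cells hold on to laminin through the integrins alpha3beta1, alpha6beta1 and alpha6beta4, the last in hemidesmosomes on laminin-332, while fibroblasts use collagen and fibronectin receptors and leukocytes carry beta2 and beta7 integrins of their own.

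The cells were primary cultures of C4HD, a ductal, hormone-dependent tumour of female BALB/c mice that first arose under 40 mg of medroxyprogesterone acetate (MPA, a progestin) and is kept by serial transplantation into MPA-treated animals. The labels describe the cells as the epithelial-enriched fraction after repeated sedimentation, grown in steroid-stripped serum, and the title calls them ErbB-2 positive. Both groups received 30 nM of a small RNA with the lipid reagent siPORT NeoFx and were lysed after 48 h: pre-miR-16, a precursor of miR-16, or pre-miR-Control, a scrambled sequence that yields no known microRNA of mammals. Each group has 3 arrays, called biological replicates by the design text, with 300 ng of total RNA labelled with Cy3 for each. The strand that the precursor delivers is shown here because it is what the treated cells received, with its seed (bases 2 to 8) in capitals, from RefSeq (GRCm38.p6).
mmu-miR-16-5p: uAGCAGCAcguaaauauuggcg

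A level below is a log2 processed signal minus the array's 75th percentile, so that a level of 0 is as bright as the 75th percentile. A change is pre-miR-16 minus pre-miR-Control with its standard error from limma over 3 arrays a group, and a gene is said to have risen or fallen at an adjusted p under 0.05 over all 16702 genes tested. The number of arrays limits the precision, and an exact permutation test of 3 against 3 arrays cannot give a p under 0.10. Levels of different genes were not compared, since each probe has its own brightness, except within the summed marker levels. These sums, and the share of a gene in them, depend on the brightness of each probe. The luminal keratins Krt8 and Krt18 were well above background on all 6 arrays, and so was Dcn, a fibroblast proteoglycan. Across all genes 49.1% were called, 16% up and 33.1% down, and the median change was -0.20. When the arrays were scaled on their spike-in probes all changes moved up by 0.38, and rises then made up 78.0% of the calls in place of 32.5%.

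Of the 44 gene names, 35 had a probe that passed the filter on dim signals (57 of the 91 probes). Among these 15 rose (42.9%) and 6 fell (17.1%), beside 16% and 33.1% of all genes. The groups did not overlap in 24 genes, with pre-miR-16 above in 16 and below in 8, beside 19% and 42.4% of all genes. The median change was 0.16, or 0.29 over the 31 measured subunits alone. In 4 of the genes that rose, Itga2, Itgam, Lama1 and Lama4, the filter was passed through the pre-miR-16 arrays only, so a difference was built into their being measured, and with a filter on all 6 arrays 11 rose and 6 fell. The size of the changes was unequal: of the 17 called genes that were well above background on all 6 arrays, 8 rose and 1 fell by over 2-fold, and 5 rose by over 4-fold. Over all genes tested, rises made up 60.1% of the calls with a 2-fold change required and 32.5% without it. That share was not taken at 4-fold or over the genes well above background on all 6 arrays.

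**Figure D1:**
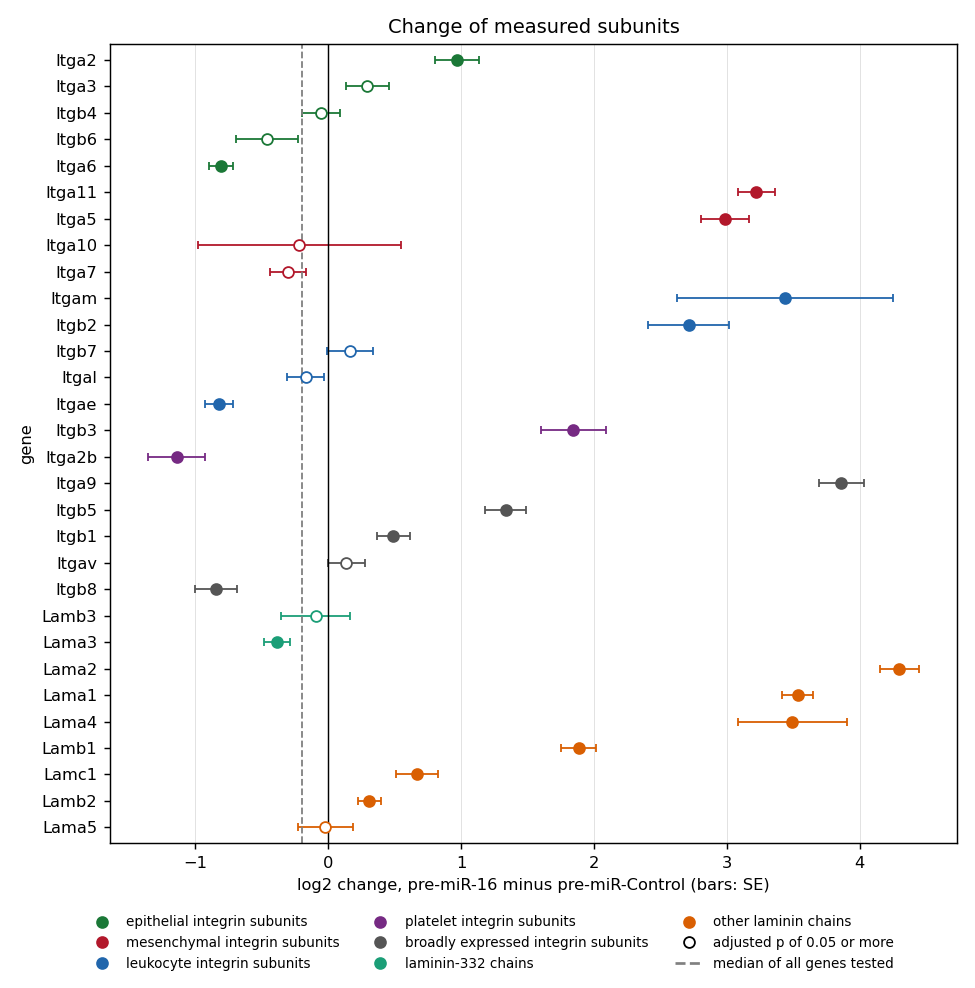
Log2 change (pre-miR-16 minus pre-miR-Control, x axis) of 30 measured subunit genes (y axis), coloured by class, with bars of 1 SE, filled where called and open where not, and a dashed line at the median of all genes tested, -0.20. Lama2 at 4.30 and Itga9 at 3.86 lie farthest right and Itga2b at -1.14 farthest left, and the epithelial integrin subunits, Lama3 and Lamb3 all lie between -0.81 and 0.97.

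The epithelial integrin subunits, receptors for laminin, collagen and latent TGF-beta in epithelia, showed no common change. All 5 were measured, and of these 1 rose and 1 fell. Itga6, the laminin-binding alpha chain shared by alpha6beta1 and alpha6beta4, read 2.70, 2.63 and 2.64 on the 3 control arrays and 1.81, 1.79 and 1.95 on the 3 pre-miR-16 arrays. The groups were apart by more than the range within either. Itga6 fell by 0.81 ± 0.09 (adjusted p = 0.000943), to 0.571 of the control level. Its partner Itgb4, the long-tailed beta chain that anchors keratin filaments in hemidesmosomes, read 5.30, 5.02 and 5.43 in the controls and 5.29, 5.02 and 5.27 with pre-miR-16. These groups overlapped and the change was -0.06 ± 0.14 (adjusted p = 0.764). The difference between the changes of Itga6 and Itgb4 was not tested.

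Itga3, the alpha chain of the laminin receptor alpha3beta1, read 2.66, 2.31 and 2.34 on the control arrays and 2.67, 2.52 and 3.00 on the pre-miR-16 arrays. The groups overlapped (change 0.29 ± 0.16, adjusted p = 0.180). Itgb6, which pairs with the alpha v chain to activate latent TGF-beta on epithelia, read 2.12, 2.12 and 2.41 in the controls and 1.94, 1.25 and 2.08 with pre-miR-16. All 3 pre-miR-16 arrays were below the controls, with replicate 2 well under the other two, and the change of -0.46 ± 0.23 was not called (adjusted p = 0.147). Itga2, the alpha chain of a collagen and laminin receptor, was near the detection limit: it read -4.89, -5.17 and -5.44 in the controls and -4.37, -4.14 and -4.08 with pre-miR-16, and was well above background on 1 of 3 control arrays. Its groups did not overlap and it rose by 0.97 ± 0.16 (adjusted p = 0.00445), but with normexp background correction the change was 0.17 and not called.

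Luminal epithelial markers moved with Itga6. Of 15 measured, 9 fell and 1 rose (median change -0.56), beside 33.1% and 16% of all genes. Among those that fell were Krt8 (-1.19 ± 0.11), Epcam (-0.76 ± 0.11) and Cdh1 (-0.76 ± 0.11). Summed on the linear scale, in multiples of each array's 75th percentile, the 15 markers were at 1200 to 1342 on the control arrays and at 719 to 895 on the pre-miR-16 arrays. Prom1 was not well above background. In RNA from a whole culture, fewer cells of a type and less of a transcript in each cell cannot be told apart, and this holds for all results that follow. Under spike-in scaling the changes of these markers moved up by 0.38 like all others, and the fall of Itga6 was 0.43 and not called (adjusted p = 0.123).

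The mesenchymal integrin subunits gave 2 rises, both over 4-fold, and no fall among 4 measured. Itga11, the alpha chain of the collagen receptor alpha11beta1 of fibroblasts, read -3.80, -3.64 and -3.79 on the control arrays and -0.63, -0.25 and -0.69 on the pre-miR-16 arrays. Every pre-miR-16 array was far above every control array, and Itga11 rose by 3.22 ± 0.14, or 9.31-fold (adjusted p = 2.04e-05). Itga5, the alpha chain of the main fibronectin receptor, read -1.11, -1.47 and -1.57 in the controls and 1.41, 1.89 and 1.50 with pre-miR-16. It went from below to above the 75th percentile of its arrays, a rise of 2.99 ± 0.18 or 7.92-fold (adjusted p = 7.53e-05).

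The other 2 measured subunits of this class were not called. Itga7, a laminin-binding alpha chain of muscle, read -1.91, -1.88 and -2.25 in the controls and -2.39, -2.16 and -2.40 with pre-miR-16, with overlapping groups (change -0.30 ± 0.14, adjusted p = 0.117). Itga10, a collagen-binding alpha chain of cartilage, read -2.58, -5.08 and -5.24 in the controls and -5.07, -4.74 and -3.75 with pre-miR-16. Control replicate 1 was far brighter than the other two controls, and the change of -0.22 ± 0.76 was within the spread. Itga1, a collagen-binding alpha chain, and Itga8, an RGD-binding alpha chain of smooth muscle and kidney, had no probe that passed the filter. Of the 4 probes of Itga1, A_52_P459929 read -7.40, -7.21 and -7.41 in the controls and -4.65, -3.97 and -4.82 with pre-miR-16, without overlap. It was well above background on 0 of 3 control and 2 of 3 pre-miR-16 arrays. For this probe that gives a level at least 1.81-fold higher with pre-miR-16 and no test. For a second probe that bound was 1.10-fold, and the other two were well above background on no pre-miR-16 array. Of these, A_52_P245620 was well above background on 1 of 3 control arrays (-4.21), so no bound is given for the gene.

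Fibroblast markers moved with Itga11 and Itga5. Of 15 measured, 13 rose (2 of them measured through the pre-miR-16 arrays only) and 0 fell, among them Col1a1 (3.94 ± 0.12), Pdgfrb (4.21 ± 0.15) and Vim (3.34 ± 0.11), while Dcn (-0.07 ± 0.13) and S100a4 (0.22 ± 0.10) were not called. Their summed level was 402 to 471 on the control arrays and 650 to 815 on the pre-miR-16 arrays. Dcn made up most of the control sum: without it, a sum taken after its value was seen, the other 14 markers were at 25.8 to 27.3 and at 314 to 414. Of the basal and myoepithelial markers 5 of 8 measured rose, Acta2 (3.36 ± 0.23), Tagln, Cnn1, Mylk and Myh11. All are contractile genes, some of which myofibroblasts share, and Mylk and Myh11 were measured through the pre-miR-16 arrays only. The basal keratins Krt14 (-1.95 ± 0.36) and Krt17 (-1.83 ± 0.14) fell and Krt5 (0.24 ± 0.27) was not called. The part of these cells in the rises of Itga11 and Itga5 was not tested.

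Among the leukocyte integrin subunits 2 of 5 measured rose, the beta2 chain and its myeloid alpha chain, and 1 fell. Itgb2, the beta chain common to all beta2 integrins, read -3.59, -3.53 and -4.52 in the controls and -1.35, -0.81 and -1.35 with pre-miR-16. All pre-miR-16 arrays were above all controls, and Itgb2 rose by 2.71 ± 0.30, or 6.55-fold (adjusted p = 0.00101). Itgam, the alpha chain (CD11b) that pairs with it on macrophages and neutrophils, read -4.53, -7.46 and -7.59 on the control arrays and -3.24, -2.89 and -3.14 on the pre-miR-16 arrays.

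Control replicate 1 was the only control array on which Itgam was well above background, and it stood far above the other two. Itgam rose by 3.44 ± 0.81 (adjusted p = 0.0148), by 1.28 between the 2 arrays of slide 1 and by 4.64 within slide 2. Without control replicate 1 the rise was 4.44, without control replicate 2 it was 2.97 and not called (adjusted p = 0.0510), and with normexp it was 0.87. A second Itgam probe, A_51_P103007, failed the filter. It stayed below the detection limit on all 3 control arrays and read -4.56, -3.93 and -4.78 with pre-miR-16, well above background on 2 of 3. For this probe that gives a level at least 1.88-fold higher and no test. The tested probe was well above background on control replicate 1, so no bound is given for the gene.

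Itgal, the alpha chain (CD11a) of lymphocytes and other leukocytes, read -0.42, -0.28 and -0.12 in the controls and -0.32, -0.67 and -0.33 with pre-miR-16. The groups overlapped and its change was -0.17 ± 0.14 (adjusted p = 0.343). Itgb7, the beta chain of gut-homing and intraepithelial lymphocytes, read -3.73, -3.68 and -3.26 in the controls and -3.62, -3.20 and -3.37 with pre-miR-16, again with overlap (change 0.16 ± 0.17, adjusted p = 0.461). Itgae, the alpha chain (CD103) that pairs with Itgb7 and binds E-cadherin, read 0.53, 0.64 and 0.53 in the controls and -0.39, -0.10 and -0.27 with pre-miR-16. It fell by 0.82 ± 0.11 (adjusted p = 0.00178) on arrays that did not overlap, and was not called under spike-in scaling (-0.44). Itga4 (6 probes), Itgb2l and Itgax were not measured: for Itga4 and Itgb2l no probe was well above background on any array, and for Itgax 1 of 3 pre-miR-16 arrays was.

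Macrophage markers moved with Itgb2 and Itgam. Of 17 measured 15 rose, 7 of them measured through the pre-miR-16 arrays only, and 0 fell, with a summed level of 19.1 to 25.8 on the control arrays and 254 to 320 on the pre-miR-16 arrays. Adgre1, which encodes F4/80, rose by 7.55 ± 0.35 and was well above background on 2 of 3 control arrays, and Ptprc, the common leukocyte antigen CD45, was below the detection limit on all 3 control arrays and at least 12.2-fold higher with pre-miR-16. Csf1r (-0.51 ± 0.26) and Aif1 (0.08 ± 0.24) were not called, and Cd163 was not measured. Of the T, B and NK cell markers 3 of 13 were measured, with Cd79b higher (2.63 ± 0.54, well above background on 1 of 3 control arrays) and Cd3e (-0.08 ± 0.13) not called, while Cd4, Cd8a, Cd79a, Ms4a1 and Ncr1 were not measured. Of the neutrophil and mast cell markers 3 of 10 were measured. S100a8 and Ltf rose, by 4.26 ± 1.10 and 0.80 ± 0.21, Mpo was not called (-0.32 ± 0.21), and S100a9, Elane, Cpa3 and Kit were not measured. S100a8 read -2.15, -1.81 and -1.75 in the controls and 3.49, -0.35 and 3.95 with pre-miR-16, so that pre-miR-16 replicate 2 was far below the other two. The part of leukocytes in the culture in these rises was not tested.

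The 2 subunits of the platelet receptor moved in opposite directions on the probes tested. Itgb3, the beta chain of both the platelet fibrinogen receptor and alpha v beta3 of osteoclasts, macrophages and mesenchyme, read 2.03, 2.01 and 2.19 and 3.57, 4.49 and 3.69 on its brighter probe. On this probe Itgb3 rose by 1.85 ± 0.25, or 3.59-fold (adjusted p = 0.00193), with pre-miR-16 replicate 2 the highest. On its other probe Itgb3 was not called (change -0.14 ± 0.13). Itga2b, its platelet partner, read -1.94, -2.21 and -2.37 in the controls and -3.73, -3.01 and -3.20 with pre-miR-16. It fell by 1.14 ± 0.21 (adjusted p = 0.00642) and kept its call under all 24 alternatives run, which the other 5 members that fell did not. Of the platelet markers Gp9, Gp1ba, Gp6 and Treml1 were not measured and Gp1bb was not called (0.41 ± 0.25), whereas Pf4 and Ppbp, chemokines that macrophages can express as well, rose by 6.88 ± 0.46 and 2.75 ± 0.28.

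Of the 5 broadly expressed integrin subunits 3 rose and 1 fell. Itga9, the alpha chain of a receptor for tenascin-C and VCAM-1, read -4.52, -4.56 and -4.74 on the control arrays and -0.91, -0.40 and -0.93 on the pre-miR-16 arrays, 14.5-fold higher (change 3.86 ± 0.17, adjusted p = 2.09e-05). Itgb5, a vitronectin-binding partner of the alpha v chain and already bright in the controls, read 5.16, 5.01 and 5.30 in the controls and 6.71, 6.23 and 6.52 with pre-miR-16. It rose by 1.33 ± 0.15, or 2.52-fold (adjusted p = 0.00107), with no overlap.

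Itgb1, the beta chain that most alpha chains of these classes need, read 2.77, 2.70 and 2.92 in the controls and 3.24, 3.47 and 3.15 with pre-miR-16. Its rise of 0.49 ± 0.12 (adjusted p = 0.0172) was small beside those of its partners Itga5, Itga9 and Itga11, and it was lost under 8 of 24 alternatives, among them leaving out control replicate 1 (0.48, adjusted p = 0.0515) or 2 (0.44, adjusted p = 0.0684). Itgav, the alpha v chain, read 1.63, 1.31 and 1.64 in the controls and 1.80, 1.48 and 1.71 with pre-miR-16, with overlap (change 0.14 ± 0.14, adjusted p = 0.448). Of its beta partners other than Itgb1, Itgb3 (on 1 of its 2 probes) and Itgb5 rose, Itgb6 was not called, and Itgb8 fell. Itgb8, which with alpha v activates latent TGF-beta, read -2.14, -2.20 and -2.25 in the controls and -3.27, -2.71 and -3.14 with pre-miR-16, a fall of 0.85 ± 0.16 (adjusted p = 0.00675) that was not called under spike-in scaling (-0.46).

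**Figure D2:**
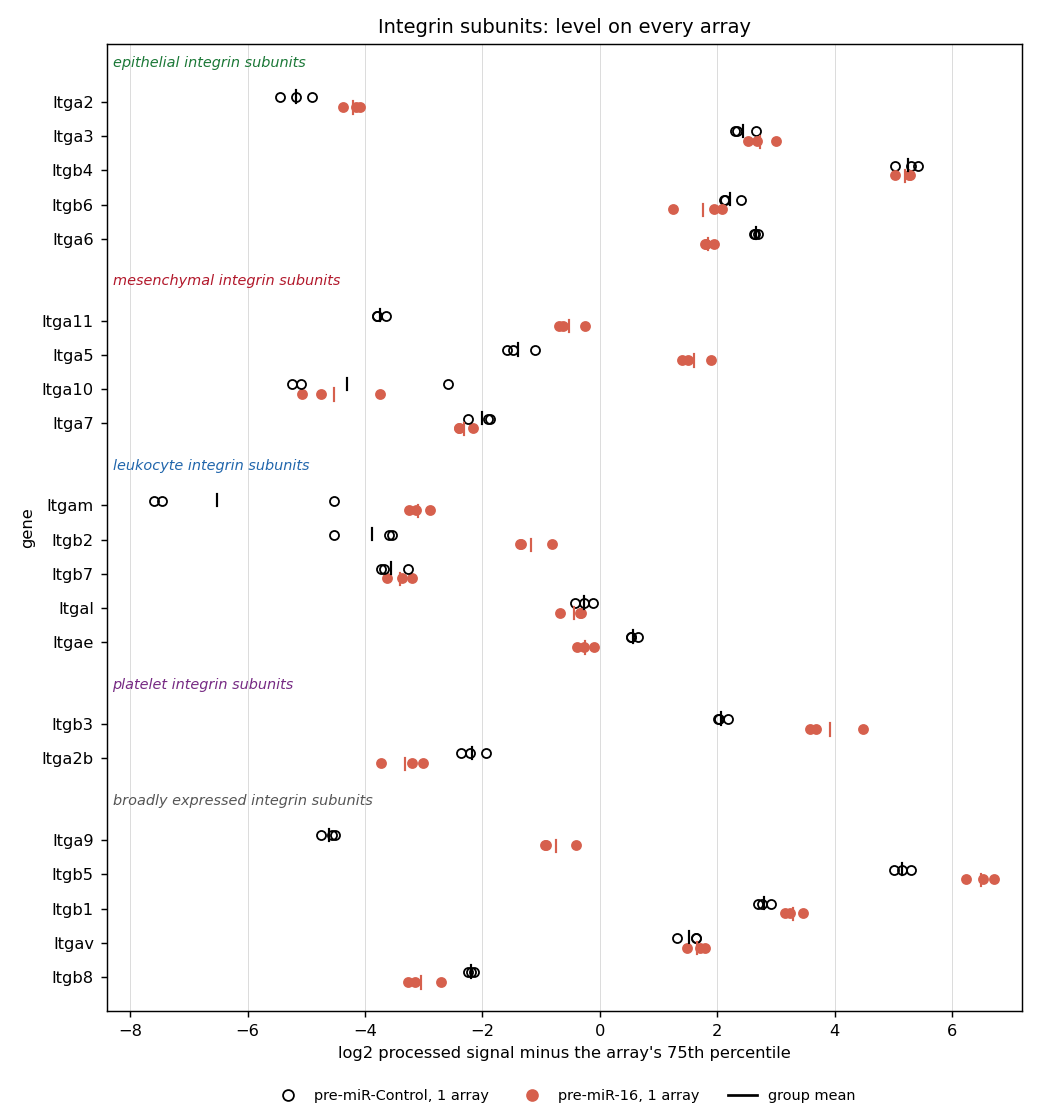
Level (log2 processed signal minus the array's 75th percentile, x axis) of the 21 measured integrin subunits (y axis, by class) on each control array (open circles) and each pre-miR-16 array (filled circles), with ticks at group means. The groups lie clearly apart for Itga11, Itga5, Itgb2, Itga9, Itgb3 and Itgb5, whereas Itgb4 and Itga3 overlap and 1 control array of Itgam (-4.53) and of Itga10 (-2.58) stands away from the other two.

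Lama3 and Lamb3, chains of laminin-332, the laminin of epithelial hemidesmosomes, changed little. Both had changes below 0, of which that of Lama3 was called, and scaled on the spike-ins Lamb3 was above 0 with no call (0.29). Lama3, the alpha chain, read -0.97, -1.02 and -0.90 in the controls and -1.48, -1.25 and -1.33 with pre-miR-16. The groups did not overlap, and the fall of 0.38 ± 0.10 (adjusted p = 0.0199) was lost under 10 of 24 alternatives. Among them were spike-in scaling (a change of -0.0015), slide as a block (-0.38, adjusted p = 0.0781), and leaving out control replicate 1 (-0.39), 2 (-0.41) or 3 (-0.35) or pre-miR-16 replicate 1 (-0.32). Lamb3, the beta chain, read 2.58, 2.33 and 2.51 in the controls and 2.06, 2.98 and 2.11 with pre-miR-16. Pre-miR-16 replicate 2 was above the controls and the other two were below them, and the change was -0.09 ± 0.26 (adjusted p = 0.782). Without that array it was -0.39 and called (adjusted p = 0.0276).

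Of the 7 measured laminin chains outside laminin-332, 6 rose and none fell. Lama2, the alpha chain of muscle and nerve basement membranes, read -3.69, -4.09 and -3.86 in the controls and 0.33, 0.62 and 0.30 with pre-miR-16. It rose by 4.30 ± 0.15, or 19.7-fold (adjusted p = 1.24e-05), the largest change of any member measured, although without control replicate 1 that of Itgam was larger (4.44 against 4.39). Lama4, the alpha chain of vessel and fat basement membranes, read -4.05, -4.63 and -5.68 in the controls and -1.50, -1.01 and -1.38 with pre-miR-16, and was well above background on 2 of 3 control arrays. The control arrays were widely spread, all below the pre-miR-16 arrays, and Lama4 rose by 3.49 ± 0.41 (adjusted p = 0.00116), or by 1.91 with normexp.

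Lama1, the alpha chain of embryonic laminin-111, read -7.44, -7.26 and -7.48 in the controls and -3.99, -3.69 and -3.91 with pre-miR-16. Since all 3 control arrays were below the detection limit, its level is given as at least 2.77-fold higher with pre-miR-16, and with normexp its change was 0.64. The limma call (adjusted p = 1.20e-05) belongs to the change fitted on control values below that limit and is no test of this bound. Lama1 was measured through the pre-miR-16 arrays only. Lamb1, the beta chain of most of these trimers, read -0.33, -0.37 and -0.19 in the controls and 1.41, 1.80 and 1.54 with pre-miR-16. It rose by 1.88 ± 0.13, or 3.69-fold (adjusted p = 0.000123). Lamc1, the gamma chain that nearly all laminins share, read 2.04, 1.93 and 2.01 in the controls and 2.56, 2.43 and 2.98 with pre-miR-16. It rose by 0.67 ± 0.16 (adjusted p = 0.0147), with pre-miR-16 replicate 3 the highest, and was not called without control replicate 2 (0.64, adjusted p = 0.0556).

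Lamb2, the beta chain of synaptic, muscle and kidney laminins, read 2.81, 2.64 and 2.76 in the controls and 3.10, 3.02 and 3.02 with pre-miR-16. The groups were narrow and apart, the rise of 0.31 ± 0.09 (adjusted p = 0.0299) was small, and it was lost under 10 of 24 alternatives, among them leaving out control replicate 2 (0.26) or 3 (0.32) or pre-miR-16 replicate 1 (0.28) or 3 (0.32). Lama5, the alpha chain of most adult epithelial and vascular basement membranes, read 3.96, 4.16 and 4.20 in the controls and 4.24, 3.65 and 4.38 with pre-miR-16. These groups overlapped and the change was -0.02 ± 0.20 (adjusted p = 0.939). Lamc3 was not measured: of its 3 probes the brightest was well above background on 2 of 3 control arrays and on 0 of 3 pre-miR-16 arrays. Endothelial cells, whose basement membranes hold Lama4 and Lama5, had 3 of 10 markers measured, all well above background on all 6 arrays. Their summed level was 14.9 to 17.3 on the control and 12.3 to 21.4 on the pre-miR-16 arrays. Vwf made up most of this sum, at a mean level of 3.96 in the controls and 3.91 with pre-miR-16. Pecam1, Cdh5, Kdr, Tek, Tie1, Emcn and Cldn5 were not measured, Vwf and Esam were not called (-0.05 ± 0.26 and -0.24 ± 0.30), and Eng, which fibroblasts and macrophages also express, rose by 3.01 ± 0.20.

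**Figure D3:**
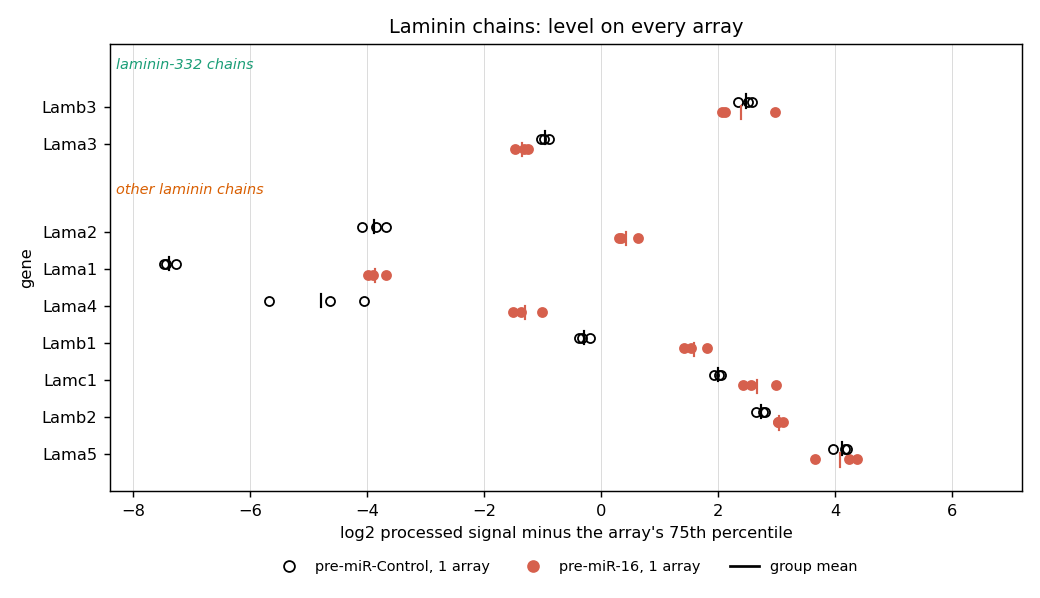
Level (log2 processed signal minus the array's 75th percentile, x axis) of 9 measured laminin chains (y axis) on each control array (open circles) and each pre-miR-16 array (filled circles), with ticks at group means. Lama2, Lama1, Lama4 and Lamb1 are far apart between the groups, while Lama3, Lamb3 and Lama5 lie close together.

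Several of these measurements come from probes that cross an exon junction. Their coordinates in the files (mouse build mm7, NCBI35) span far more than their 60 bases, so the target is spliced transcript. Such probes of 4 laminin chains that rose, of Lamb3, which was not called, and of Itgae, which fell, are printed in lower case, in the sense of the transcript, to show which stretch was measured.
Lama2, probe A_52_P652859, chr10:26743094-26745104, minus strand: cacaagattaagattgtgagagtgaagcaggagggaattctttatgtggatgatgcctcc
Lama4, probe A_52_P7554, chr10:38885025-38885815, plus strand: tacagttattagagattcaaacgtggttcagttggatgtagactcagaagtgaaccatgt
Lama1, probe A_51_P188108, chr17:66089045-66090007, plus strand: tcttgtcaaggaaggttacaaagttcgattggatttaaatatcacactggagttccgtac
Lamb1, probe A_51_P244287, chr12:29168364-29169711, plus strand: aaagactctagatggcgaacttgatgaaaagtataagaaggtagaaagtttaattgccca
Lamb3, probe A_51_P223656, chr1:192893546-192896077, plus strand: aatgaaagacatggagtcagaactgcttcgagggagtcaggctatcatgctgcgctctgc
Itgae, probe A_51_P352076, chr11:73227177-73228635, plus strand: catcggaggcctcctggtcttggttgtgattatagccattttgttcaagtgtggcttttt

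The junction probes of Lama2 and Lama4 were second probes, dimmer than those tested for the gene. That of Lama2 read -4.68, -5.66 and -6.30 on the control arrays and -1.60, -1.20 and -1.45 on the pre-miR-16 arrays. That of Lama4 read -5.47, -5.72 and -6.17 in the controls and -2.35, -1.87 and -2.33 with pre-miR-16, and was below the detection limit on all 3 control arrays. Fitted over all 23827 kept probes (46.5% called, 15.2% up and 31.3% down), the first rose by 4.13 ± 0.40. The second is given as at least 8.88-fold higher, a bound for this probe that does not come from the fit. The tested Lama4 probe was well above background on 2 of 3 control arrays, so no bound is given for the gene. Of the 5 kept probes of Lama2 and Lama4, 4 passed the filter through the pre-miR-16 arrays only, the Lama2 junction probe with 1 of 3 control arrays well above background, so a rise was built into their being kept. For each gene 1 more probe failed the filter, and 2 of the Lama4 probes share 29 bases.

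Of the 57 member probes kept, 19 rose and 11 fell, of which 8 and 1 passed the filter only through the group in which they were higher. In 17 genes more than 1 probe was kept: in 10 all probes of the gene had the same call, in 7 (Eif6, Itga6, Itgal, Itgav, Itgb1, Itgb3 and Lama3) they did not, and in 0 genes did 1 probe rise and another fall. Itgb3 had the widest split. Its brighter probe, from the cDNA AK135584 at chr11:104779399-104779458, rose by 1.85 ± 0.25, and its other probe, from the reference transcript NM_016780 and 3112 bases upstream at chr11:104776217-104776287, read 0.29, 0.35 and 0.14 in the controls and 0.03, 0.34 and -0.02 with pre-miR-16. This second probe was well above background on all 6 arrays and its change was -0.14 ± 0.13 (adjusted p = 0.405). The call for Itgb3 rests on the AK135584 probe.

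Itga6 was measured by 3 probes. The tested one (from BC024571) and a dim one (from AK045391, -3.05, -3.00 and -2.85 against -4.44, -4.16 and -4.36) both fell, the latter by 1.35 ± 0.11 (adjusted p = 0.000349). The third, from NM_008397 and between them in position, read 0.37, 0.25 and 0.29 in the controls and 0.12, 0.30 and -0.04 with pre-miR-16, with overlap and a change of -0.18 ± 0.12 (adjusted p = 0.251). For Itgb1 the probe with 10 spots rose, while a second probe 10084 bases away, for the same transcript NM_010578, read 0.49, 0.31 and 0.65 in the controls and 0.35, 0.82 and 0.25 with pre-miR-16 and did not (change -0.01 ± 0.18). A probe from the Itgb1 cDNA U37029 was not well above background on any array.

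Itgal and Itgav differed the other way, with calls on the dimmer probe only. The second Itgal probe, from NM_008400, read -0.57, -0.60 and -0.58 in the controls and -1.13, -1.13 and -1.13 with pre-miR-16. All 3 pre-miR-16 arrays lay below the controls, and it fell by 0.55 ± 0.08 (adjusted p = 0.00293). The dim Itgav probe, from NM_008402 and well above background on 2 of 3 control arrays, rose by 1.12 ± 0.29 (adjusted p = 0.0214), from a mean level of -4.99 in the controls to -3.88. The second Lama3 probe changed by -0.59 ± 0.26 with overlapping groups (adjusted p = 0.108). Both kept probes of Itgb8 fell, by 0.85 on the tested probe and by 2.14 ± 0.51 on the dimmer one, which was kept through the control arrays only, and both of Itgae fell, by 0.82 and 0.43. The 2 bright probes of Itgb4 share 50 bases and are nearly 1 measurement.

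**Figure D4:**
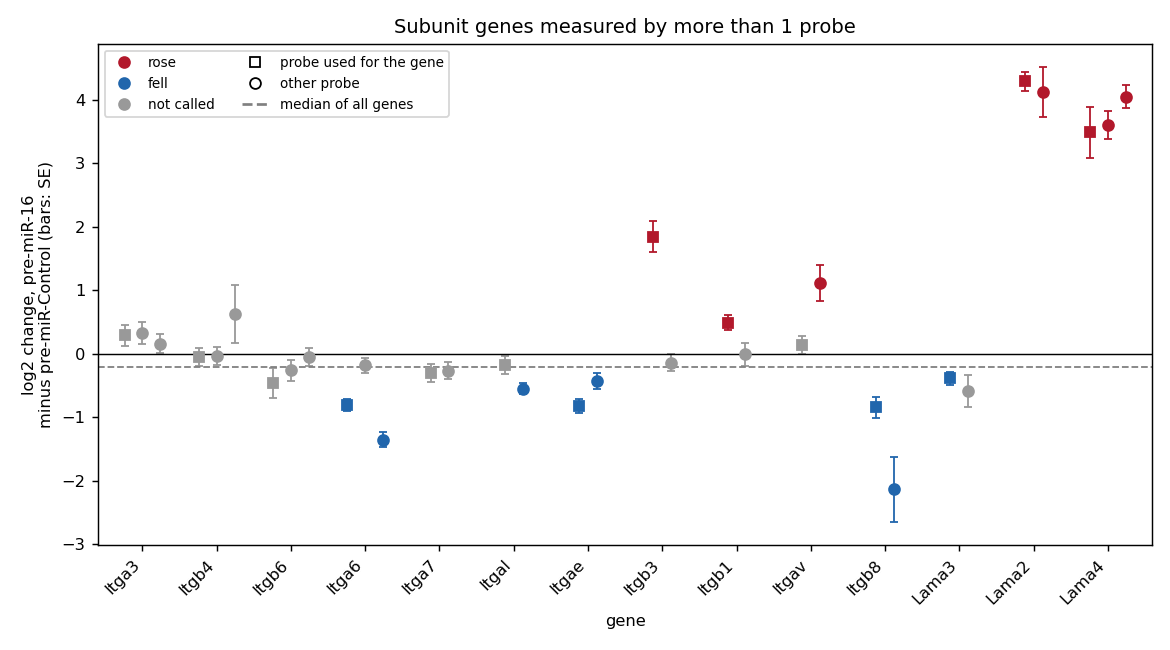
Log2 change with 1 SE (y axis) of every kept probe of 14 subunit genes that had more than 1 (x axis), with the probe used for the gene as a square and others as circles, red where it rose, blue where it fell and grey where it was not called. The kept probes of Lama2 and Lama4 lie high together, 4 of these 5 having passed the filter through the pre-miR-16 arrays only, whereas Itgb3 has 1 probe at 1.85 ± 0.25 and another at -0.14 ± 0.13.

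Among the 7 names that are no subunits, 4 were measured and 1 was called. Itgb3bp, which encodes the centromere protein CENP-R, read 0.08, 0.32 and 0.08 in the controls and -0.76, -0.90 and -0.72 with pre-miR-16. It fell by 0.95 ± 0.11 (adjusted p = 0.00113) without overlap, and was not called under spike-in scaling (-0.57). Itgb1bp1, the beta1 tail-binding protein ICAP1, changed by 0.27 ± 0.10 (adjusted p = 0.0577), and its groups did not overlap. Eif6 and the probe still named Itgb4bp changed by -0.27 ± 0.12 and -0.38 ± 0.18, neither called, although the second Eif6 probe fell (change -0.36 ± 0.10, adjusted p = 0.0278). Itgb1bp2, Itgb1bp3 and Itgbl1 were not measured.

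The other genes of the pathway were taken as 4 lists, described here by counts. Beside these counts, 16% of all genes rose and 33.1% fell. Of 31 measured adaptors and activators, which link integrin tails to actin or switch the receptors on, 16 rose and 2 fell (median change 0.42). Of the 16, 6 were measured through the pre-miR-16 arrays only, Fyb and Fermt3 among them, and with a filter on all 6 arrays 12 of the list were called in place of 18. The 5 with the smallest p were Apbb1ip (3.58 ± 0.14), Fyb (4.01 ± 0.20), Tns1 (2.72 ± 0.14), Lims2 (2.85 ± 0.17) and Fermt2 (3.46 ± 0.27). Apbb1ip (RIAM) and Fyb (ADAP) activate integrins in blood cells, as does Fermt3, the blood-cell kindlin, which rose by 2.42 ± 0.35. Tns1 and Fermt2 serve the adhesions of mesenchymal cells, and Lims2 is a partner of Ilk, which rose by 0.65 ± 0.10. Among focal adhesion proteins, Vcl (1.08 ± 0.12), Actn1 (0.82 ± 0.13), Tns3 (1.01 ± 0.13), Ptk2b (1.25 ± 0.16) and Tln1 (0.42 ± 0.10) rose, Ptk2 (-0.17 ± 0.09), Pxn (0.15 ± 0.12) and Bcar1 (0.07 ± 0.11) were not called, and Rap1a (-0.54 ± 0.11) and Src (-0.45 ± 0.14) fell.

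Of 21 measured matrix and cell-surface ligands 13 rose, 3 of them measured through the pre-miR-16 arrays only, and 4 fell (median 1.53). Tnc, the tenascin that Itga9 binds, rose by 3.95 ± 0.13, and Fn1, fibronectin, the ligand of Itga5, by 1.47 ± 0.13. With Tnc, the smallest p values were those of the elastic fibre proteins Fbln5 (4.09 ± 0.13) and Fbn1 (4.42 ± 0.16), of the junction protein Jam3 (3.90 ± 0.15) and of Ccn2 (3.42 ± 0.13), a matricellular protein. The 4 that fell were Icam4 (-1.06 ± 0.12), F11r (-0.53 ± 0.10), the epithelial JAM-A, Npnt (-1.44 ± 0.36), a ligand of Itga8, and Edil3 (-2.52 ± 0.66), a ligand of alpha v integrins. Of the Icam genes on the list besides Icam4, Icam1 (-0.25 ± 0.15) was not called and Icam2 (1.53 ± 0.41) rose.

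Of 13 measured basement membrane partners and other laminin receptors 9 rose, 2 of them measured through the pre-miR-16 arrays only, and 2 fell (median 0.80). The collagen IV chains Col4a1 and Col4a2 rose by 4.08 ± 0.17 and 4.13 ± 0.16, and Nid1, which joins laminin to collagen IV, by 2.88 ± 0.09. Col15a1 (3.23 ± 0.29, well above background on 1 of 3 control arrays) and Ntn4 (2.46 ± 0.26) rose too. Agrn, a laminin-binding proteoglycan, and Col4a6 fell (-0.59 ± 0.09 and -0.37 ± 0.12), Col4a5 (-0.30 ± 0.16) and the Lama5 receptor Bcam (-0.43 ± 0.18) were not called, and the laminin receptor Dag1 rose by 0.53 ± 0.13.

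Of 13 measured hemidesmosome and tetraspanin partners 1 rose and 3 fell (median 0.04), smaller shares than the 16% and 33.1% of all genes. Ceacam1 (-1.94 ± 0.15), Krt14 (-1.95 ± 0.36) and Cd151 (-0.37 ± 0.12), the tetraspanin that binds Itga3 and Itga6, fell, and Cd81 rose by 0.34 ± 0.11. The hemidesmosome proteins Plec (0.05 ± 0.14), Dst (0.10 ± 0.27) and Col17a1 (-0.20 ± 0.12) were not called, like Itgb4. The change of Cd151 turned to 0.01 under spike-in scaling.

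Both groups were present on slides 1 and 2 of the 3 slides used. In every called member the groups did not overlap, so the direction of its change within a slide was fixed beforehand and is no separate support. The 15 members that rose were higher by 0.30 to 4.02 within slide 1 and by 0.32 to 4.64 within slide 2. The 6 that fell changed by -1.78 to -0.51 within slide 1 and by -1.10 to -0.28 within slide 2. The median over the 35 genes was 0.16 and 0.32. With slide as a block 14 rose and 5 fell, the losses being Lamb2 and Lama3. The sizes of the changes of dim genes depended on the background correction. Normexp was run with a constant of 50 added to each signal, which raises dim signals, and the part of this constant was not tested. With normexp the rise of Itga9 was 2.32 in place of 3.86, of Itga11 2.12 in place of 3.22, of Lama4 1.91 in place of 3.49, and of Itgb2 1.69 in place of 2.71, all still called. The brighter Itgb3, Itgb5 and Lamb1 kept 1.86, 1.36 and 1.77.

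**Figure D5:**
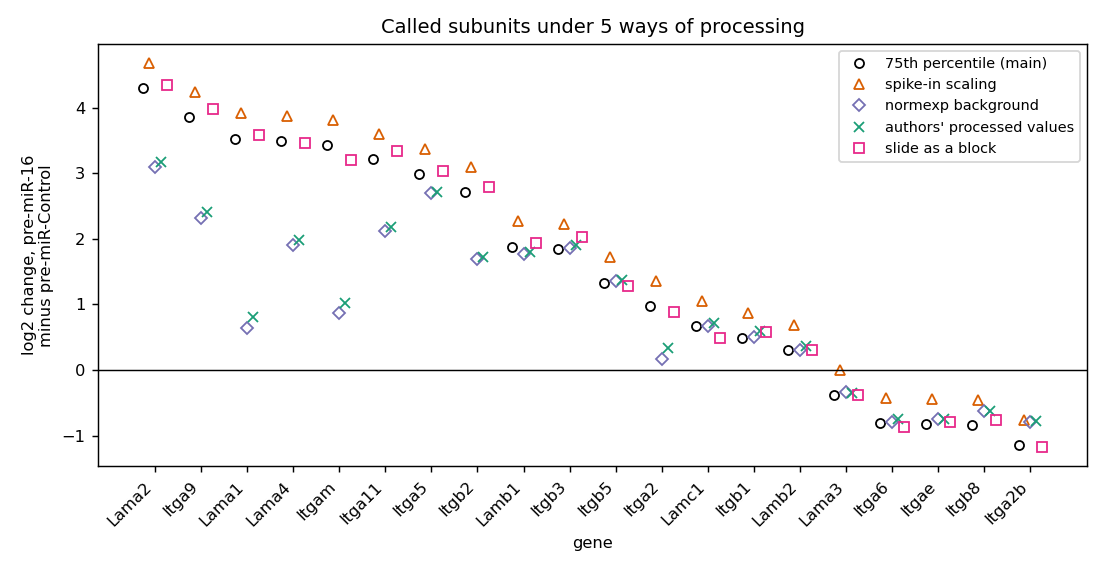
Log2 change (y axis) of the 20 called subunits (x axis, in order of their change) under the main processing (black circles), spike-in scaling (triangles), normexp background correction (diamonds), the authors' processed values (crosses) and slide as a block (squares). Spike-in scaling shifts all genes up alike by 0.38, and normexp and the authors' values lower the rises of dim genes such as Lama1 (0.64) and Itgam (0.87) while leaving Itga5, Lamb1 and Itgb5 nearly in place.

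Sequence before the start of the gene was at hand for 27 of the 44 names (30 windows of 250 bases, RefSeq, GRCm38.p6), and both letters and their reverse complement were searched for 2 motifs that do not overlap. GAGGAAG, the core of the site of PU.1, an ETS factor of myeloid cells, was in 26.7% of the member windows and in 10.6% of all 32851. It was in 3 of 10 genes that rose, 1 of 3 that fell, 3 of 8 that were not called and 1 of 6 not measured. CACCTG, an E-box bound by Zeb and Snail repressors of epithelial genes, was in 26.7% of member windows and 17.2% of all, in 3 of 10, 1 of 3, 4 of 8 and 0 of 6 genes. Itga11, which rose, and Itgb6 and Lamb3, which were not called, held both motifs. The stretches around 1 match in 3 genes that rose and around both motifs in Itgb6 are printed on the strand of the gene with the match in capitals. For Itga11 only the CACCTG match is printed.
Itgam, chr7:128062516-128062602, plus strand: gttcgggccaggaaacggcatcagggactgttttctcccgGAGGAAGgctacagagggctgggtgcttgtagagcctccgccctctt
Lama2, chr10:27616972-27617058, minus strand: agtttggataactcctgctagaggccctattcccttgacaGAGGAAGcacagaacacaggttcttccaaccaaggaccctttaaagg
Itgb6, chr2:60673694-60673768, minus strand: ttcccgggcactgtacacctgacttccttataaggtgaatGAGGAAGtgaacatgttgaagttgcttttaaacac
Itgb6, chr2:60673708-60673793, minus strand: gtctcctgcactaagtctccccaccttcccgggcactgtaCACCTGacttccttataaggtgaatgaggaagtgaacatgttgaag
Itga11, chr9:62677694-62677779, plus strand: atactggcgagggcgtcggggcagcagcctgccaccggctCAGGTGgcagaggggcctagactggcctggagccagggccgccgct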

How the data were processed

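Scanner files of 6 single-colour Agilent mouse arrays were used, 3 per group, with groups taken from the sample labels. Per the file headers, the authors scanned and extracted the spots with Agilent Feature Extraction 9.5.3.1. The deposited processed signal is a background-subtracted intensity that is not scaled between arrays. The deposited mean and local background intensity served an alternative, normexp with a constant of 50 added. The deposited series matrix holds log2 values of unstated scaling (column medians 6.79 to 6.81). Its columns for pre-miR-16 replicates 1 and 2 each follow the other's scanner file, which leaves the group comparison as it is.

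In R 4.3.3, control spots and 74 to 113 outlier spots per array were left out, each array's 75th percentile over the 43379 remaining spots was subtracted on the log2 scale, and spots of a probe were averaged. The filter on dim signals kept a probe when a share of 0.5 or more of its spots was flagged as well above background on each array of either group (or both); below the detection limit means not so flagged. Each gene's brightest kept probe was tested with limma 3.58.1 (lmFit and eBayes), with Benjamini-Hochberg adjustment over 16702 genes. Names came from RefSeq accessions where the gene table held them (22951 probes), otherwise from the file. A change against a group in which no array was well above background is a lower bound, set against the higher of the dimmest signal well above background and the probe's own. The code was tested on simulated data.

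The 75th percentile of the processed signal was 626 to 911 units, 57.2% to 64.0% of spots were well above background and 0 were saturated; precision is limited by how many arrays there are. Replicate 1 of both groups shared slide 1, pre-miR-16 replicate 2 shared slide 2 with the other two controls, and pre-miR-16 replicate 3 was alone on slide 3. The alternatives covered scaling, background correction, filters, the choice of probe, blocks, weights, thresholds and each array left out in turn. Values per array are given for the measured subunits reported and, in the other lists, mostly for the up to 5 called genes with the smallest p. Members and lists were chosen with earlier results of these data known. Others named in the pathway and marker lists were picked after their values were seen. Some genes of the rule and lists count in the totals and are not reported here by name.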

Additional observations from a re-analysis of the deposited data

How the results depend on the processing

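Of the 21 called genes 11 kept their call under all alternatives run and 10 lost it under at least 1. Scaled on the spike-ins, members that fell numbered 1 (6 otherwise). Under this scaling 0 epithelial, 0 leukocyte and 0 broadly expressed integrin subunits and 0 laminin-332 chains fell. All changes moved up by 0.38, and Cd151 turned to 0.0145. In the members that lost their fall the standard errors were also larger, 0.19 against 0.09 for Itga6 and 0.19 against 0.11 for Itgae. The parts of the shift and of the standard errors in the lost calls were not tested. With normexp and the 75th percentile 0 epithelial subunits rose. With the authors' matrix values 1 mesenchymal subunit fell. Without the filter on dim probes 0 laminin-332 chains fell and 2 hemidesmosome partners were called, and with a filter on all 6 arrays, which leaves fewer genes, 0 epithelial and 1 leukocyte subunits rose. With the mean of a gene's probes 2 leukocyte subunits fell. With array weights 2 epithelial subunits rose and 1 mesenchymal subunit fell. With slide as a block 0 laminin-332 chains fell. At an adjusted p under 0.01, 1 leukocyte subunit rose, 0 laminin-332 chains fell and 2 hemidesmosome partners were called. With a 2-fold change required, 1 member fell, 0 epithelial subunits rose, 0 epithelial, 0 leukocyte and 0 broadly expressed subunits and 0 laminin-332 chains fell, and 18 member probes, 5 basement membrane partners and 2 hemidesmosome partners were called. With the replicate number as a block, 0 laminin-332 chains fell, 2 hemidesmosome partners were called and 13 members rose and 5 fell. The labels do not say that numbers pair the cultures, and deviations of same-numbered arrays correlated at -0.088, -0.026 and -0.0028, so the numbers were not taken as pairs. With each array left out in turn, 11 to 15 members rose and 5 to 7 fell, 1 to 2 leukocyte subunits rose, 0 to 2 laminin-332 chains fell, 21 to 30 member probes and 2 to 3 hemidesmosome partners were called. Other than the shift under spike-in scaling and the effects of requiring 2-fold and of the stricter filter, which follow from how they are built, the cause was not tested. Dim genes limit the sizes: a member near background has no reliable fold.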
